A study of Homo sapiens with 9 samples.

Results

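A set of 10 genes that mark primordial germ cells or encode germ-cell RNA-binding proteins was followed in TCam-2, a human testicular seminoma cell line, by total RNA sequencing. They are DPPA2, DPPA3, DPPA4, DPPA5, NANOS3, DND1, DDX4, DAZL, TCL1A and PDPN, taken from a list of names, and they make up 10 of the 63856 genes in the deposited count table. Each symbol had 1 row in the table. The 9 samples fell into 3 groups of 3. WT cells were TCam-2 cells without modification. NC cells were TCam-2 cells transfected with nonspecific gRNAs that have no target in the human genome. ESX1 cells were TCam-2 cells in which the X-linked homeobox gene ESX1 was switched on by CRISPR activation (CRISPRa), in which a cleavage-dead Cas9 fused to transcriptional activators is directed to a promoter by specific gRNAs. After transfection the cells were selected with antibiotic and induced with doxycycline, and the measured populations were mixtures in which only part of the cells carried the GFP reporter of the plasmid. Every group is the same cell line, and the study calls the samples of a group biological replicates. NC and WT cells differed in transfection, selection and induction together. The methods name the gRNA plasmid for the NC cells and do not say whether they also received the activator plasmid, so that ESX1 and NC cells may differ in the activator as well as in the gRNAs.

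Primordial germ cells are the embryonic founders of sperm and eggs, and seminoma is thought to arise from cells halted at a related stage. Of the developmental pluripotency associated (DPPA) proteins, DPPA2 and DPPA4 act in the nucleus, while DPPA5 binds RNA. NANOS3, DND1, DAZL and DDX4 act on RNA, deciding which germ-cell messages are stored, translated or degraded. DDX4 and DAZL belong to a later stage than NANOS3 and DND1, when germ cells have reached the gonad.

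Of the 10 genes, 7 had counts in at least 1 sample and 6 had enough to be tested. DPPA4 and PDPN were strongly expressed, fell in ESX1 cells to 31.7% and 43.3% of their WT means, and had intermediate levels in NC cells. TCL1A and NANOS3 were weakly expressed and were also lower in ESX1 than in WT cells. DPPA2 did not pass the test, DPPA3 and DDX4 lay near the limit of counting, and DPPA5, DAZL and DND1 had 0 counts in all 9 samples. Levels are given as CPM, the counts of a gene relative to the whole library, after scaling by the trimmed mean of M-values (TMM), and a gene was called changed at an edgeR adjusted p below 0.05 with a fold change of at least 2.

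Total counts ranged from 5212804 in ESX1 replicate 3 to 10644408 in WT replicate 3. The targeted gene ESX1 was at 57.0, 55.7 and 31.4 CPM in the ESX1 samples, and between 2.89 and 4.08 CPM in the 6 control samples. Of the 11 seminoma identity genes described below, POU5F1, SOX17 and TFAP2C had WT means of 1267, 227 and 998 CPM, while the lowest, UTF1, had 3.33 CPM. These levels do not by themselves verify the label TCam-2. WT replicate 1 stood apart from the other WT samples: its log2 CPM correlated with the NC samples at 0.961 to 0.963, while WT replicates 2 and 3 reached 0.949 to 0.953. WT replicate 1 also held 22 genes with 12 or more counts that had at most 1 count in both other WT samples, against 4 such genes for replicate 2 and 6 for replicate 3.

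The promoters of the 4 genes between which the comparison is most direct are shown first. DPPA2 and DPPA4 are neighbours on chromosome 3, of which DPPA4 passed the test and DPPA2 did not. TCL1A and PDPN lie elsewhere and, like DPPA4, had all ESX1 samples below all control samples. The 300 bases run 5′ to 3′ from 250 bases before to 50 bases after the RefSeq transcription start in GRCh38.p14, and capitals mark CpG, the dinucleotide at which DNA is methylated. The windows are chr3:109316468-109316767 on the minus strand for DPPA2, chr3:109337497-109337796 on the minus strand for DPPA4, chr14:95714076-95714375 on the minus strand for TCL1A, and chr1:13583507-13583806 on the plus strand for the most upstream of the 3 starts listed for PDPN.
DPPA2: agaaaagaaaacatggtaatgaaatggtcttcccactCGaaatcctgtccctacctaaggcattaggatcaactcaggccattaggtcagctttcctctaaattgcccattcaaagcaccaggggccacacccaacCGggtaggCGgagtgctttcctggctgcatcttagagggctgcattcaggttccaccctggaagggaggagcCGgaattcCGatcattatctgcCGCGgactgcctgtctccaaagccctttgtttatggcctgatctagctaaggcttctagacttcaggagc
DPPA4: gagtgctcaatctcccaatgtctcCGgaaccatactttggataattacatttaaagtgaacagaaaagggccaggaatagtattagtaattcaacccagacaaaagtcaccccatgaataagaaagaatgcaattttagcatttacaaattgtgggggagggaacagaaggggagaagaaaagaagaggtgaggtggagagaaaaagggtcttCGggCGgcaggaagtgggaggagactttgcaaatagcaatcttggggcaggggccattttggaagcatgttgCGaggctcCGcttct
TCL1A: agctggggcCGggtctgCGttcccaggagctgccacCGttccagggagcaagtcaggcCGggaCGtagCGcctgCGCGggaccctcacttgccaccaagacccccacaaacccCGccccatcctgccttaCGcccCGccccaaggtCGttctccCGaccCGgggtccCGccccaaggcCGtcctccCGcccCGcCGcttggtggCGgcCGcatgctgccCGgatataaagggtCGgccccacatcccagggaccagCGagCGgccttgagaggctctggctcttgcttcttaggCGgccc
PDPN: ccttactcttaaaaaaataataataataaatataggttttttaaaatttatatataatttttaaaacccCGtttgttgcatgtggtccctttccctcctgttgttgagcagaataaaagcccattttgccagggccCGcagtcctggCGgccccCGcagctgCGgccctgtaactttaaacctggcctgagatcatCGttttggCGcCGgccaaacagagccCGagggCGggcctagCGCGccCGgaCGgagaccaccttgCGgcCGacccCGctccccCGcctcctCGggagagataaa
These windows hold 7 CpG for DPPA2, 5 for DPPA4, 26 for TCL1A and 19 for PDPN, against a median of 14 over 35116 RefSeq windows of the same length. The other starts listed for PDPN had windows with 22 and 6 CpG, so that PDPN lay above or below that median depending on the start. The letters TAATTA, a core bound by many homeodomain proteins and the same on both strands, occurred once in the DPPA4 window, in none of the other windows of the 10 genes, and in 4.84% of all windows. The letters GCGGGA, an E2F core searched on both strands, occurred 3 times in the TCL1A window and in 26.9% of all windows. TATAAA, also searched on both strands, occurred in 11.5% of all windows. It stood as written in the TCL1A window, and in the PDPN window shown only on the other strand, printed as TTTATA. The octamer ATGCAAAT was in none of the windows of the 10 genes and in 1.77% of all windows, and the E-box CACGTG, in 7.26% of all windows, was in none of the 4 shown. These motifs were chosen after the expression values were known, and a match describes letters, not binding.

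DPPA4 (chromosome 3, 109326141 to 109337572, minus strand) and DPPA2 (109293788 to 109316517, minus strand) are paralogous genes separated by 9623 bases in the GRCh38 annotation of the files. Their proteins carry a SAP domain, bind chromatin as a pair and keep certain germline and early embryonic genes accessible. DPPA4 measured 240, 305 and 282 CPM in WT replicates 1 to 3, 145, 155 and 154 CPM in NC, and 86.2, 102 and 74.4 CPM in ESX1. The groups did not overlap at any step: the lowest WT sample was above the highest NC sample, and the lowest NC sample was above the highest ESX1 sample. Means were 276 ± 32.9 CPM in WT, 151 ± 5.73 in NC and 87.4 ± 13.7 in ESX1 (SD, n = 3). The log2 fold change was -1.65 ± 0.13 (SE) for ESX1 against WT, with an adjusted p of 1.45e-07 by edgeR, and the 95% interval ran from -1.93 to -1.38. Against NC it was -0.79 ± 0.13 (adjusted p = 0.00154, edgeR), and NC against WT gave -0.87 ± 0.13 (adjusted p = 0.000234, edgeR). Both of these steps passed on p and stayed under 2-fold, so that 52.4% of the log2 difference between ESX1 and WT cells was already present in NC, with 48.8% to 55.9% when each sample was left out in turn. In a bulk sample, fewer cells expressing a gene and less RNA per cell cannot be told apart, which applies to every value here.

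DPPA2, the partner, had low counts throughout. It measured 3.06, 2.92 and 3.13 CPM in WT, 2.49, 2.79 and 3.05 CPM in NC, and 1.62, 2.72 and 2.40 CPM in ESX1. The NC samples overlapped both other groups, whereas the ESX1 samples were all below the WT samples. Its log2 fold change was -0.44 for ESX1 against WT, with a 95% interval of -1.17 to 0.29 (adjusted p = 0.364, edgeR), and with this interval a fall of 2-fold could not be told from no change. Against NC it was -0.31, with an interval of -1.04 to 0.41. Per kilobase of exon, WT cells held 55.1 ± 6.58 CPM of DPPA4 and 2.20 ± 0.08 CPM of DPPA2. The 2 partners of the pair were thus present at very different levels, and the pseudogenes DPPA2P2, DPPA2P3 and DPPA2P4, which could take DPPA2 reads, had at most 5 counts in any sample.

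**Figure D1:**
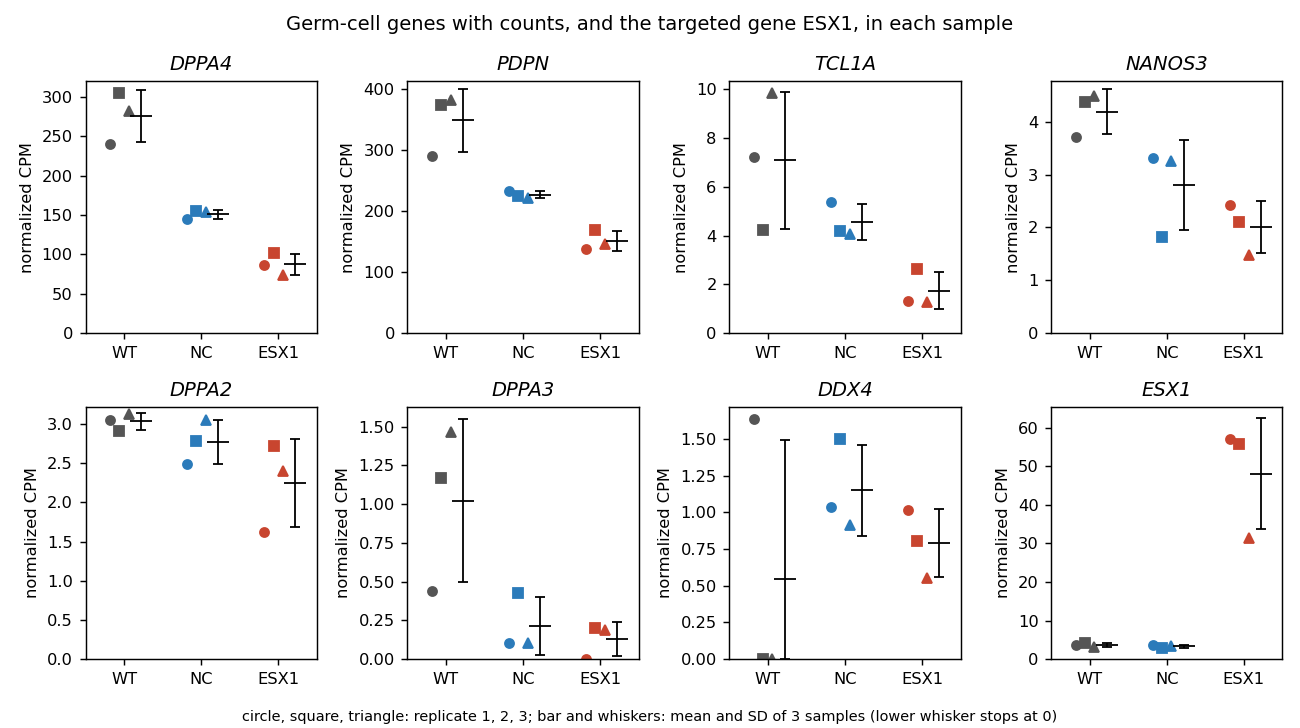
Normalized CPM (y axis, linear, from 0) in each sample of WT, NC and ESX1 cells (x axis) for the 7 germ-cell genes with counts and the targeted gene ESX1; symbols mark replicates 1 to 3, and the bar with whiskers is the mean ± SD of 3 samples. DPPA4 and PDPN step down from WT (lowest 240 and 290 CPM) through NC to ESX1 (highest 102 and 170 CPM) without overlap, whereas DDX4 in WT rests on replicate 1 alone.

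PDPN (chromosome 1, 13583465 to 13617957, plus strand) encodes podoplanin, a mucin-type membrane glycoprotein used as a surface marker of seminoma and of lymphatic endothelium. It measured 290, 375 and 382 CPM in WT, 234, 226 and 222 CPM in NC, and 138, 170 and 146 CPM in ESX1. As for DPPA4, all WT samples were above all NC samples and all NC samples were above all ESX1 samples. Means were 349 ± 51.3, 227 ± 6.04 and 151 ± 16.5 CPM (SD, n = 3). The log2 fold change was -1.21 ± 0.12 (SE) for ESX1 against WT (adjusted p = 2.16e-06, edgeR), -0.59 ± 0.12 for ESX1 against NC (adjusted p = 0.00968, edgeR) and -0.62 ± 0.12 for NC against WT (adjusted p = 0.00234, edgeR). Without NC replicate 3 the adjusted p against NC was 0.0506. The step in NC made up 51.4% of the whole difference, close to the share for DPPA4, with 47.7% to 55.7% when each sample was left out. PDPN had the highest level of the 10 genes per kilobase of exon in WT cells, 94.1 ± 13.8 CPM, above 98.4% of tested genes. The order WT above NC above ESX1 without overlap was found for 2 of the 10 genes, DPPA4 and PDPN, and for 3.52% of all 18452 tested genes.

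TCL1A (chromosome 14, 95709967 to 95714196, minus strand) encodes a coactivator of the AKT kinases that is present in germ cells, seminoma and immature B lymphocytes. It measured 7.21, 4.23 and 9.82 CPM in WT, 5.39, 4.18 and 4.07 CPM in NC, and 1.32, 2.62 and 1.29 CPM in ESX1. The WT and NC samples overlapped, and all 3 ESX1 samples lay below all 6 controls. For ESX1 against WT the log2 fold change was -1.99 ± 0.37 (SE, adjusted p = 0.000658, edgeR), a level 3.97-fold lower. For ESX1 against NC it was -1.34 ± 0.38, a level 2.53-fold lower with an adjusted p of 0.054 (edgeR), and this missed the threshold. With the fit restricted to the 6 samples compared the adjusted p was 0.0413, with no filter on low counts it was 0.0121, and with DESeq2 it was 0.04. Without WT replicate 2 or 3, or without ESX1 replicate 2, it was 0.0408, 0.0385 and 0.0222. It rose to 0.192, 0.115 and 0.122 without NC replicate 1, 2 or 3, and to 0.161 and 0.19 without ESX1 replicate 1 or 3. The other 5 alternatives missed the threshold, with an adjusted p between 0.0532 and 0.0625. With limma the fold was also under 2, on the authors' log2 scale, where weakly expressed genes gave smaller folds. NC against WT gave -0.65 ± 0.33 (adjusted p = 0.188, edgeR). All ESX1 samples below all controls was seen for 3 of the 10 genes, DPPA4, TCL1A and PDPN, and for 7.21% of all tested genes. An antisense gene, RP11-164H13.1, covers 9.66% of the TCL1A exon bases and had at most 3 counts.

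NANOS3 (chromosome 19, 13862063 to 13880757, plus strand) is a zinc-finger RNA-binding protein that keeps primordial germ cells alive and works with Pumilio proteins and the CCR4-NOT deadenylase to silence messages. It measured 3.71, 4.37 and 4.49 CPM in WT, 3.32, 1.82 and 3.26 CPM in NC, and 2.43, 2.11 and 1.48 CPM in ESX1. All ESX1 samples and all NC samples were below all WT samples, while ESX1 and NC overlapped through NC replicate 2. The log2 fold change for ESX1 against WT was -1.02 ± 0.35 (SE, adjusted p = 0.0369, edgeR), just past both thresholds. The call was lost with upper-quartile scaling (-0.92, adjusted p = 0.0571), with DESeq2 (adjusted p = 0.0784), with no filter on low counts (adjusted p = 0.0827) and in the fit of the 6 samples compared (adjusted p = 0.0538). With limma on the authors' log2 values it was lost on fold alone (-0.54, adjusted p = 0.0304). On that scale 0 counts stand at 4.18 and weakly expressed genes gave smaller folds, so 2-fold is a stricter limit for them there. The call was also lost without WT replicate 2 or 3, NC replicate 3, or ESX1 replicates 2 or 3. The highest adjusted p was 0.127, without ESX1 replicate 3. Against NC the value was -0.44, with an interval of -1.20 to 0.31, and for NC against WT it was -0.58 (adjusted p = 0.254, edgeR).

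DPPA3, also called STELLA, protects DNA methylation marks in the egg and restrains the maintenance factor UHRF1. It lies on chromosome 12 (7711454 to 7717559, plus strand) and had 4, 8 and 14 counts in WT, 1, 4 and 1 in NC, and 0, 2 and 1 in ESX1, too few to pass the filter. The ESX1 samples were all below the WT samples, and NC replicate 2 equalled WT replicate 1 in counts. Pooled over the 3 samples of a group the ESX1 to WT ratio, scaled by library size, was 0.129 with an exact interval of 0.0249 to 0.420 (3 against 26 counts), the NC to WT ratio was 0.236 with 0.0793 to 0.586 (6 against 26 counts), and the ESX1 to NC ratio was 0.546 with 0.0883 to 2.56. These intervals, computed after the counts were seen, cover counting error only and not the spread between samples. Without a filter on low counts, edgeR gave a log2 fold change of -2.93 for ESX1 against WT with an adjusted p of 0.0509. The pluripotency gene NANOG, 70234 bases away, gave -2.03 for ESX1 against WT (adjusted p = 9.53e-09, edgeR) and -1.26 against NC (adjusted p = 7.00e-06, edgeR), and was looked up as a neighbour after the values were seen.

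DDX4, the VASA helicase (chromosome 5, 55738017 to 55817157, plus strand), had 15, 0 and 0 counts in WT, 10, 14 and 9 in NC, and 10, 8 and 3 in ESX1. All WT counts were in replicate 1, so that DDX4 is itself among the 22 genes counted above for that sample. At most 15 counts were found in any sample. With all samples the log2 fold change was 0.50 for ESX1 against WT (adjusted p = 0.723, edgeR), with an interval of -1.43 to 2.43, and 0.99 for NC against WT (adjusted p = 0.469, edgeR). The call for this gene is decided by WT replicate 1. Without it WT had 0 counts, and both comparisons with WT passed, with an adjusted p of 0.00773 for ESX1 and 0.0053 for NC (edgeR). Leaving it out removes every WT count, so these 2 calls follow from its removal and are no support for a difference. With all samples the pooled ratio to WT was 1.56 for ESX1 (0.767 to 3.255, 21 against 15 counts). For NC it was 2.25 (1.19 to 4.45, 33 against 15 counts). Without WT replicate 1 only a lower 95% bound exists, 3.78 for ESX1 (21 against 0 counts) and 5.63 for NC (33 against 0 counts). All of these cover counting error only. ESX1 against NC gave -0.49 (adjusted p = 0.848, edgeR), with an interval of -2.25 to 1.28.

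DAZL, an RNA-recognition protein that activates translation and commits germ cells to their fate, and DPPA5, a KH-domain RNA-binding protein of pluripotent cells, had 0 counts in all 9 samples. The limit that a count of 0 allows, 3 counts, corresponds to between 0.282 and 0.576 CPM in a sample at this depth. For a level shared by all 9 samples the limit is lower, and the 0 counts still do not show that either gene was silent. DND1, which binds messages together with NANOS proteins and protects germ cells from turning into teratoma, also had 0 counts, but for this gene the count table could not measure it. All 1605 of its exon bases (chromosome 5, between 140670794 and 140673586, minus strand) lie inside exons of WDR55 on the opposite strand, and 11.6% also lie in HARS. The header of the table shows counting without a strand option and without assignment to overlapping genes, and under those settings a read pair that falls in exons of more than 1 gene is given to none. WDR55 itself had between 227 and 1497 counts, and its log2 fold change for ESX1 against WT was -1.41 (adjusted p = 1.82e-06, edgeR). Reads of the DND1 pseudogene DND1P1 reached at most 5 counts.

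**Figure D2:**
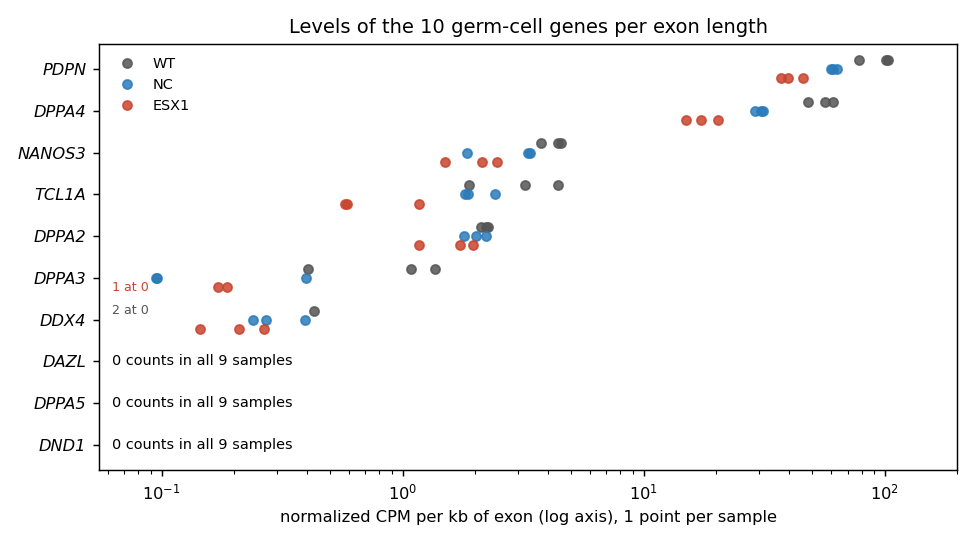
Level of each of the 10 genes as normalized CPM per kilobase of annotated exon (x axis, log scale), with 1 point per sample coloured by group; samples without counts are written out at the left. PDPN (WT mean 94.1) and DPPA4 (55.1) stand apart from NANOS3 (4.24), TCL1A (3.17) and DPPA2 (2.20), and 3 genes had no counts, of which DND1 could not be counted.

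Per kilobase of exon, the order of the WT means was PDPN, DPPA4, NANOS3 (4.24 ± 0.43 CPM), TCL1A (3.17 ± 1.25), DPPA2 (2.20 ± 0.08), DPPA3 (0.947 ± 0.489) and DDX4 (0.143 ± 0.247). PDPN was above DPPA4 in every WT sample. NANOS3 and TCL1A, TCL1A and DPPA2, and DPPA3 and DDX4 overlapped between samples, and their order within each pair was not beyond the spread. The order changed between groups: in ESX1 cells TCL1A (0.779 ± 0.338) was below DPPA2 (1.62 ± 0.41), although the highest TCL1A sample and the lowest DPPA2 sample were both at 1.17.

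**Figure D3:**
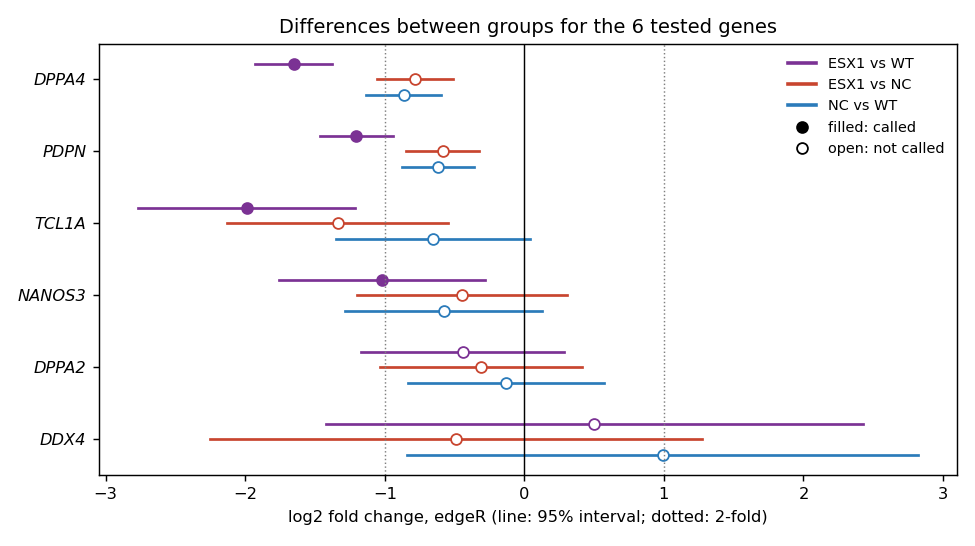
Log2 fold changes (x axis) with 95% intervals for the 6 tested genes (y axis) in the 3 comparisons; filled points passed an adjusted p below 0.05 and 2-fold. DPPA4, PDPN, TCL1A and NANOS3 are filled for ESX1 against WT only, and the intervals of DPPA2 and DDX4 include 0 in every comparison.

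Over the 10 genes, 4 were called lower in ESX1 than in WT cells (DPPA4, PDPN, TCL1A and NANOS3) and 0 were called higher, where 4.77% of all tested genes were called lower and 6.78% higher. The same 4 passed without a minimum fold, where 15.8% of all tested genes passed and were lower. Against NC, 0 of the 10 genes were called by edgeR, where 0.699% of all tested genes were called lower and 1.08% higher. At an unadjusted p under 0.05 there were 3, DPPA4, TCL1A and PDPN, where 8.56% of all tested genes passed and were lower, while DESeq2 called 1, TCL1A, and called 0.737% of the genes it tested lower. Without a minimum fold, 2 of the 10 passed against NC, DPPA4 and PDPN, where 2.37% of all tested genes passed and were lower. For NC against WT, 0 were called by edgeR and by DESeq2, where 2.15% of all tested genes were called lower and 3.12% higher by edgeR, and 2.21% lower by DESeq2. An unadjusted p under 0.05 was reached by 2, DPPA4 and PDPN, where 17.0% of all tested genes passed and were lower, and both also passed adjusted p without a minimum fold, as 10.3% of all tested genes did in that direction. Among the 6 tested genes, all ESX1 samples lay below all WT samples for 5, where 21.3% of all tested genes did so, all ESX1 samples lay below all NC samples for 3, against 11.8%, and all NC samples lay below all WT samples for 3, against 20.0%. A call against WT that is missing against NC does not by itself show that the 2 differences differ. The gap between them is the difference of NC against WT, which passed adjusted p for DPPA4 and PDPN and not for TCL1A and NANOS3. Without WT replicate 1, 5 of the 10 genes were called against WT, the added one being DDX4, which was higher. That sample held all WT counts of DDX4.

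Across the 9 samples the log2 levels of DPPA4 followed those of PDPN with a Pearson r of 0.985, of TCL1A with 0.869, of NANOS3 with 0.852 and of DPPA2 with 0.700. These values describe 3 groups of 3 samples, whose means differ, and carry no test. Over all tested genes, the pattern nearest to DPPA4 was that of RBM3 (r = 0.994), a cold-inducible RNA-binding protein, followed by MME (0.992), a membrane metallopeptidase. The nearest to PDPN were the long noncoding RNA PCAT14 (0.993) and HMGB3 (0.991), a high-mobility-group chromatin protein. The nearest to TCL1A were TEK (0.970), a receptor tyrosine kinase, and ALG1L9P (0.969), and the nearest to NANOS3 were AC000089.3 (0.959) and ALG1L2 (0.958).

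Genes that work with these proteins were taken from lists. In the NANOS, Pumilio and deadenylase list 14 of 15 genes were tested and 0 were called in any comparison by edgeR. Its members with most counts were CNOT1, the scaffold of the deadenylase, at 565 CPM in WT, 533 in NC and 548 in ESX1 cells, and PUM2, a Pumilio protein, at 233, 219 and 235 CPM. Without a minimum fold, 3 of the 14 passed and were lower in ESX1 than in WT cells, where 15.8% of all tested genes did so. These were the deadenylase subunits CNOT2 (-0.67, adjusted p = 0.00249), CNOT11 (-0.52, adjusted p = 0.00294) and CNOT7 (-0.38, adjusted p = 0.0217, edgeR). The count was 4 for NC against WT and 0 for ESX1 against NC, where 10.3% and 2.37% of all tested genes passed and were lower. NANOS2 had no counts. In the list of DAZL relatives and partners, 0 of 5 genes were called in any comparison, and PABPC1, the poly(A)-binding protein, gave -0.12 for ESX1 against WT (adjusted p = 0.356, edgeR). None of the 4 KH-domain relatives of DPPA5 could be tested, and their summed level was at most 2.03 CPM in a sample.

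The TCL1 relatives and AKT kinases held 4 tested genes of 6, with 0 called. AKT2 gave -0.06 and AKT1 -0.34 for ESX1 against WT (adjusted p = 0.741 and 0.0631, edgeR). TCL1B and TCL6, which share the TCL1A cluster and were picked out after their values were seen, were too low to test. TCL1B ranged from 0.764 to 3.24 CPM in WT, from 0.102 to 0.311 in NC and from 0 to 0.203 in ESX1, and TCL6 had counts in every WT and NC sample and 0 in all ESX1 samples.

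Of the podoplanin partners, 7 of 8 were tested and 1 was called, higher in ESX1 than in WT cells, where 6.78% of all tested genes were called higher. CD44, a hyaluronan receptor that binds podoplanin, was higher in ESX1 than in WT cells with a log2 fold change of 2.57 (adjusted p = 0.0468, edgeR), from 0.400 to 2.60 CPM, and did not pass against NC (2.09, adjusted p = 0.232, edgeR). It lay near the limit of counting in the controls, with samples at 0 to 1.20 CPM in WT, 0 to 0.965 in NC and 1.61 to 3.14 in ESX1. CD44 passed the filter only through its high ESX1 samples, so the filter itself favoured this call. Moesin (MSN), which links podoplanin to the cytoskeleton, passed without reaching 2-fold, at -0.80 against WT and -0.57 against NC (adjusted p = 6.54e-05 and 0.00661, edgeR). The tetraspanin CD9 gave 0.62 for ESX1 against NC and -0.70 for NC against WT (adjusted p = 0.00449 and 0.00063, edgeR). Podoplanin's platelet receptor CLEC1B had no counts. In the DNA methylation list, which includes the enzymes that DPPA3 acts on, 1 of 8 was called: the cofactor DNMT3L was lower in ESX1 than in WT (-1.80, adjusted p = 0.00429, edgeR) and lower in NC than in WT (-1.76, adjusted p = 0.00809, edgeR). Over all tested genes, 4.77% and 2.15% were called lower in these comparisons. Without a minimum fold, 6 of the 8 passed and were lower in ESX1 than in WT, where 15.8% of all tested genes did so. Among them was the demethylating enzyme TET1 (-0.94, adjusted p = 8.70e-06, edgeR). UHRF1 gave -0.68 against WT (adjusted p = 0.00433, edgeR) and -0.63 against NC (adjusted p = 0.0338, edgeR), the only gene of this list that passed in the latter comparison. The list median for ESX1 against WT was -0.51, and its summed level was 1392 to 1529 CPM in WT, 1143 to 1194 in NC and 954 to 1024 in ESX1 cells.

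Markers of seminoma and of other cell types are given as measured facts, and their part in the results was not tested. Of 11 seminoma identity genes, 6 were called lower in ESX1 than in WT, 1 lower in ESX1 than in NC and 2 lower in NC than in WT. Over all tested genes, 4.77%, 0.699% and 2.15% were called lower in these comparisons. The list median log2 fold change was -1.18, -0.70 and -0.47, where the median over all genes was 0.01, 0.00 and 0.01. The 4 largest were KIT (-2.64 for ESX1 against WT, adjusted p = 1.77e-07, edgeR), the receptor of germ-cell survival, NANOG, LIN28A (-1.98, adjusted p = 3.34e-07, edgeR) and PRDM1 (-1.27, adjusted p = 2.80e-06, edgeR). SOX17, the specifier of the human germ-cell lineage, gave 0.11 (adjusted p = 0.594, edgeR). The summed level of the list was 3889 to 4807 CPM in WT, 3022 to 3258 in NC and 1745 to 2145 in ESX1 cells, with no marker at 0. This list was chosen with its earlier results known.

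Of 12 spermatogonial genes 5 were tested, and 2 were called lower in ESX1 than in WT and in NC than in WT. Over all tested genes, 4.77% and 2.15% were called lower in these comparisons. GFRA1, the GDNF receptor of spermatogonial stem cells, gave -3.96 and -2.95 (adjusted p = 1.77e-08 and 1.58e-06, edgeR), and also -1.01 for ESX1 against NC (adjusted p = 0.0367, edgeR). FGFR3 gave -1.99 and -1.28 (adjusted p = 9.90e-07 and 0.000181, edgeR). The other tested genes, none of which passed, gave 0.14 for ID4, 1.02 for PIWIL4 and -0.21 for SYCP3 for ESX1 against WT, and the list median was -0.21. SOHLH2 had no counts. Of 7 non-seminoma genes 2 were tested. The endoderm factor GATA6 was higher in ESX1 than in WT (1.56, adjusted p = 0.0387, edgeR), although its samples overlapped, at 0.418 to 2.95 CPM in WT and 2.515 to 5.27 in ESX1. The embryonal carcinoma marker SOX2 was higher in NC than in WT (1.23, adjusted p = 0.0222, edgeR), and AFP had no counts. Over all tested genes, 6.78% were called higher in ESX1 than in WT and 3.12% higher in NC than in WT. The sum of that list was 2.93 to 9.17 CPM in WT, 9.43 to 16.0 in NC and 10.9 to 16.3 in ESX1 cells.

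TCL1A is also a B-lymphocyte gene and PDPN a gene of lymphatic endothelium. None of 8 B and T lymphocyte markers could be tested, their summed level was at most 1.25 CPM in a sample, and CD3D and CD3E were at 0. Of 6 lymphatic endothelium markers 2 were tested, and their sum was 27.3 to 36.9 CPM in WT, 24.0 to 31.6 in NC and 21.3 to 27.7 in ESX1 cells, mostly from the receptor FLT4. PROX1, the master regulator of lymphatic endothelium, was higher in ESX1 cells against WT (4.75, adjusted p = 0.000268, edgeR) and against NC (2.37, adjusted p = 0.0322, edgeR), from 0.104 and 0.660 to 3.51 CPM. It lay near the limit of counting in the controls, with samples at 0 to 0.313 CPM in WT and 0.207 to 0.916 in NC. The fold against WT therefore rests on few WT counts. Only the ESX1 samples were high enough to carry PROX1 past the filter, so the filter itself favoured a higher call. Over all tested genes, 6.78% and 1.08% were called higher in these comparisons. FLT4, at 31.5 CPM in WT, went the other way, with -0.67 for ESX1 against WT (adjusted p = 0.007, edgeR) and -0.48 against NC (adjusted p = 0.141, edgeR). Among 8 testis somatic markers, 5 were tested. SOX9, of Sertoli cells, was higher in ESX1 than in NC (1.83, adjusted p = 0.012, edgeR), where 1.08% of all tested genes were called higher. It was not called for ESX1 against WT (0.86, adjusted p = 0.0953, edgeR) or for NC against WT (-0.97, adjusted p = 0.1175, edgeR). Its means were 2.445 CPM in WT, 1.24 in NC and 4.45 in ESX1. INSL3, the Leydig cell hormone, had no counts, and the sum was 12.1 to 17.1 CPM in WT, 13.8 to 20.3 in NC and 11.8 to 28.5 in ESX1 cells.

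**Figure D4:**
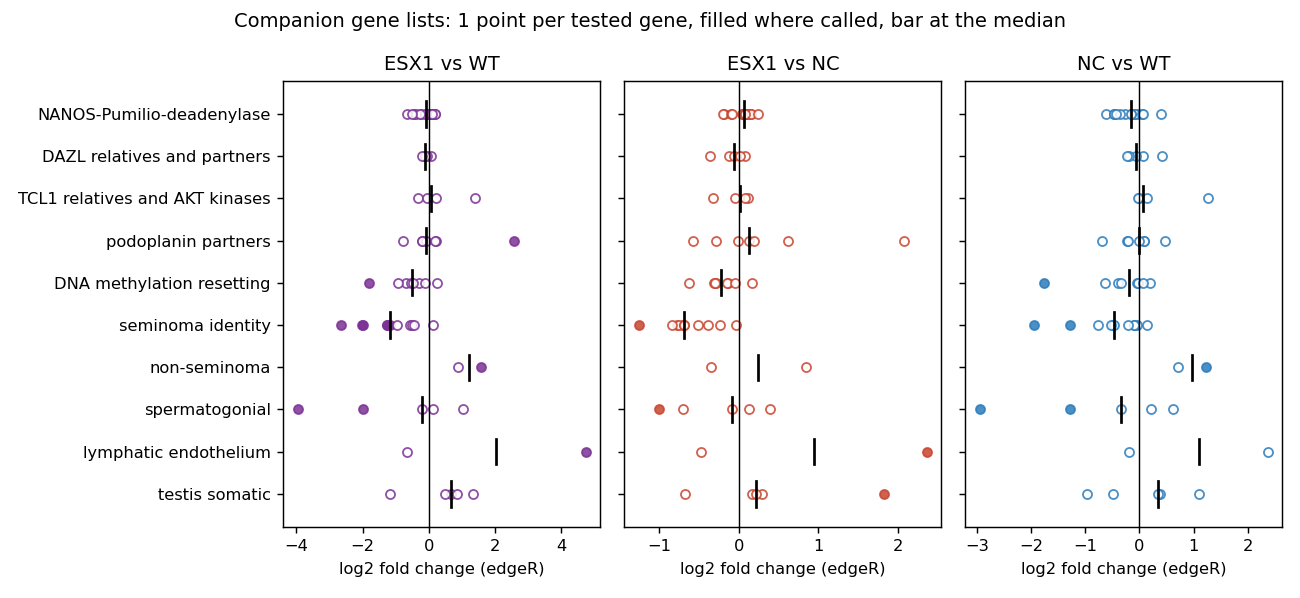
Log2 fold changes (x axis) of the tested genes of 10 companion lists (y axis) in ESX1 against WT, ESX1 against NC and NC against WT; each point is a gene, filled where called, and the black bar is the list median. In the seminoma identity list 6 of 11 genes are filled for ESX1 against WT, and in the NANOS, Pumilio and deadenylase list 0 of 14. Over all tested genes, 4.77% were called lower and 6.78% higher in that comparison.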

How the data were processed

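Total RNA of 9 TCam-2 samples was sequenced as read pairs after ribosomal RNA depletion with a stranded kit. Alignment by the authors was to GRCh38 with HISAT2 2.0.5, and gene counts came from featureCounts, given as 1.6.5 per the labels and as 1.5.2 in the file header, which names GENCODE 26; the deposited counts are raw. The authors also deposited DESeq2-normalized values on a log2 scale, whose transformation is not given in the sources used here. Both tables share their 63856 rows.

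Differences between groups were tested with edgeR 4.0.16 in R 4.3.3 (filterByExpr, TMM, glmQLFit over all 9 samples, glmQLFTest) and adjusted by Benjamini-Hochberg over 18452 genes. Alternatives used DESeq2 1.42.0, limma 3.58.1, other scaling, filters and samples. The edgeR, DESeq2 and limma code was tried on simulated counts in which all genes shared the same spread, and limma was not tried there on the authors' log2 values. This trial does not show how the tests perform on these data. The members and gene lists were chosen with earlier results of these data known. Named are the 10 genes, ESX1, from each list at most 4 called genes or else the 2 with most counts, the 2 genes most correlated with each called member, and pseudogenes and overlapping genes with counts; every other gene named was chosen after its values were seen. Promoter windows are from RefSeq, in which all 10 genes matched. Replicate numbers came from the sample titles and were not used as pairs. At total counts of 5212804 to 10644408, 3 counts in a sample was taken as the limit of detection. Precision was limited well above it, as the wide intervals of DPPA2 and NANOS3 show.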

Additional observations from a re-analysis of the deposited data

How the results depend on the processing

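Of 295 values of single members under the alternatives, 275 kept their direction and their side of the threshold, 10 lost the threshold, 8 gained it and 2 turned direction. The 2 were DDX4 for ESX1 against WT, at -0.002211 without WT replicate 2 and -0.108 without WT replicate 3. All 10 losses were NANOS3 for ESX1 against WT, and the loss with limma was on fold alone, on a scale where weakly expressed genes gave smaller folds. The gains were TCL1A for ESX1 against NC (6 settings) and DDX4 in both comparisons with WT, without WT replicate 1 (fitted log2 values of 5.863 for ESX1 and 6.357 for NC against 0 counts, which are no bound). For ESX1 against WT the count of called members was 4, became 2 where at least 10 counts were required in every sample, since TCL1A and NANOS3 were then not tested, and ran from 3 to 5 when each sample was left out. For ESX1 against NC the count was 0, became 1 with no filter, in the fit of 6 samples and with DESeq2, became 2 with no minimum fold, and ran from 0 to 1 when each sample was left out. For NC against WT it was 0, became 2 with no minimum fold, and ran from 0 to 1 when each sample was left out. DPPA3 entered the test without a filter, with DESeq2 and in 4 fits with a sample left out. It was called lower in ESX1 than in WT in 3 of them, without NC replicate 1, 2 or 3 (adjusted p between 0.0361 and 0.0398, edgeR). In these fits only its WT samples had enough counts to carry it past the filter. The filter thus favoured a lower call, which gives no support of its own, and the few counts behind it are given above. A replicate block left the counts of called members at 4, 0 and 0; same-numbered samples deviated together at correlations of -0.03 to 0.193, and the numbers were not taken as pairs. Upper-quartile scaling moved the median of all genes by 0.10 (log2) for ESX1 against WT, and for NC against WT 69.5% of called genes were then higher against 59.2% with TMM.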
